A study of Mus musculus with 2 samples.

Results

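The genes described here encode the machinery of DNA replication and mitosis and serve as markers of proliferating cells. They were 35 genes listed by symbol, and 34 of them were measured among 22180 named genes, each by the brightest probe set that carried its symbol alone. Of the 34, 11 act in S phase, when the genome is copied, and 23 act from late S phase through cell division, called the mitotic genes here. Cyclin B1 (Ccnb1) has no named probe set in the annotation at hand and was not analysed here. Total RNA came from nasal mucosa of C57BL/6 mice aged 4 to 6 weeks. The array of mice given papain, a plant cysteine protease used as a model allergen, was set against the array of mice given PBS, the saline vehicle, both at day 3. Each condition was hybridised once, to an Affymetrix Mouse Gene 2.0 ST array. A pool of 4 samples is described in the design text, which leaves unsaid whether that number is per array. The question behind the comparison, from the title, is how a protease allergen acts on the upper airway through IL-33.

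A cell entering division first licenses its replication origins with the MCM helicase and makes deoxynucleotides, then uses cyclin-dependent kinase 1 with A and B cyclins to enter mitosis. Transcription of the genes runs in the same order. E2F factors drive the S phase genes through E2F sites, and the MuvB complex acts on mitotic genes through the cell cycle genes homology region (CHR), often beside CCAAT boxes bound by NF-Y. In nasal mucosa, basal cells of the respiratory and olfactory epithelium divide to renew the tissue, and olfactory neurons are replaced throughout life.

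All values are log2 signals, and a ratio is the papain signal minus the PBS signal on that scale. The arrays correlated with r = 0.967 over 41345 probe sets, which are not replicates. With 1 array per group there was no spread between replicates and no test was possible, so precision is limited by the number of arrays. As a yardstick for probe set error, log2 ratios of probe sets for the same gene had a pooled SD of 0.32 over 1082 genes with more than 1. It holds no variation between animals. Background level, taken as the median over 31 genes typical of other tissues, was 5.15 after papain and 5.06 after PBS. Being a median, it is a lenient level, passed in both arrays by 13 of those 31 genes and by 15328 of the 22180 named genes. Epithelial, olfactory and glandular markers of nasal mucosa were present, with all 10 above background level in both arrays and a median of 10.39 after papain and 10.51 after PBS. Their ratios ran from -0.57 for Cnga2 and -0.54 for Foxj1 to 0.11 for Reg3g and 0.14 for Epcam. In RNA of a whole tissue, more dividing cells and more of a transcript per dividing cell cannot be told apart.

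The promoters of these genes are shown before their values because the S phase and mitotic genes differed in the letters they carry. RefSeq promoters of the build GRCm38.p6, 250 bases before to 50 after the gene start, were found for 29 of the 34 genes, 19 mitotic and 10 S phase. The motifs were searched on both strands. The CHR was spelled TTTGAA or otherwise TTCGAA, and the NF-Y box CCAAT. The E2F words began with the letters TT, went on with any of the pairs GG, CC, CG or GC, and ended in the letters CGC, and they can overlap each other. A CHR word stood in 15 of 19 mitotic promoters (78.9%) and in 2 of 10 S phase promoters, Mcm2 and Mcm7, against 19.4% of 27025 promoters of all genes. An E2F word stood in 3 of 19 mitotic promoters, those of Cdk1, Ect2 and Mki67, and in 6 of 10 S phase promoters (60%), against 9.69% of all promoters. CCAAT stood in 15 of 19 mitotic and 8 of 10 S phase promoters, against 37.9% of all. A match is a description of the window and not a mapped site. The 4 promoters below are those of both genes past 1.5-fold (Top2a and Anln), of the S phase gene with the highest ratio (Mcm3), and of the gene with the lowest ratio among those with a promoter (Melk). Capitals mark every match of the words above, on either strand, and each sequence reads 5′ to 3′ on the gene's own strand.
Top2a, chr11:99024140-99024439, minus strand: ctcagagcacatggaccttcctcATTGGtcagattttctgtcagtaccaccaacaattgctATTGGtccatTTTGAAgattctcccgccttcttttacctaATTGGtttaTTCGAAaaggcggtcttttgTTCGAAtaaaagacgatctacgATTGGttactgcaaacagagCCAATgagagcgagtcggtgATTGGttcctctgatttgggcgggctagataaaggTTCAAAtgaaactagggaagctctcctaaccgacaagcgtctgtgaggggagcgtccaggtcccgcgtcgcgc
Anln, chr9:22389157-22389456, minus strand: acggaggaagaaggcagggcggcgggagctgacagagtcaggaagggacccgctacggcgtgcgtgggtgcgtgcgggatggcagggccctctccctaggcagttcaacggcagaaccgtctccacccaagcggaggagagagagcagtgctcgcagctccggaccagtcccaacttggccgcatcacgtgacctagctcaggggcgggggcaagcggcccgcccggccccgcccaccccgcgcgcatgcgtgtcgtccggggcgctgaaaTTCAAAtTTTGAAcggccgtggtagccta
Mcm3, chr1:20820263-20820562, minus strand: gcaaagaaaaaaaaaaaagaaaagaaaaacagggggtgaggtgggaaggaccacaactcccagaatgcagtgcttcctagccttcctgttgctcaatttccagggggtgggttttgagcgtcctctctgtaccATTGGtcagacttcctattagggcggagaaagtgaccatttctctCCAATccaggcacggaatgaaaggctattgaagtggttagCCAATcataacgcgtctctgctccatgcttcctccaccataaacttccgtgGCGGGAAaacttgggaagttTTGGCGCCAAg
Melk, chr4:44300667-44300966, plus strand: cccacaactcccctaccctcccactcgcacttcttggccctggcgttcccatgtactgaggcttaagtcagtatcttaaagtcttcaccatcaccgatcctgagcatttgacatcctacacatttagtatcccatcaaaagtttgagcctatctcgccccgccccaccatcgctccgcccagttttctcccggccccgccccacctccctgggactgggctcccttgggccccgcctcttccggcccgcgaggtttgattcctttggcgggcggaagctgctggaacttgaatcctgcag
The Top2a window held 10 matches, 4 of them CHR words and 6 CCAAT boxes. Anln had 2 CHR words just after the start and neither of the other motifs. Mcm3 had 3 CCAAT boxes before the start and 3 E2F words after it, and 1 pair of the E2F words overlapped. Melk had no match to any of these words in its window.

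**Figure D1:**
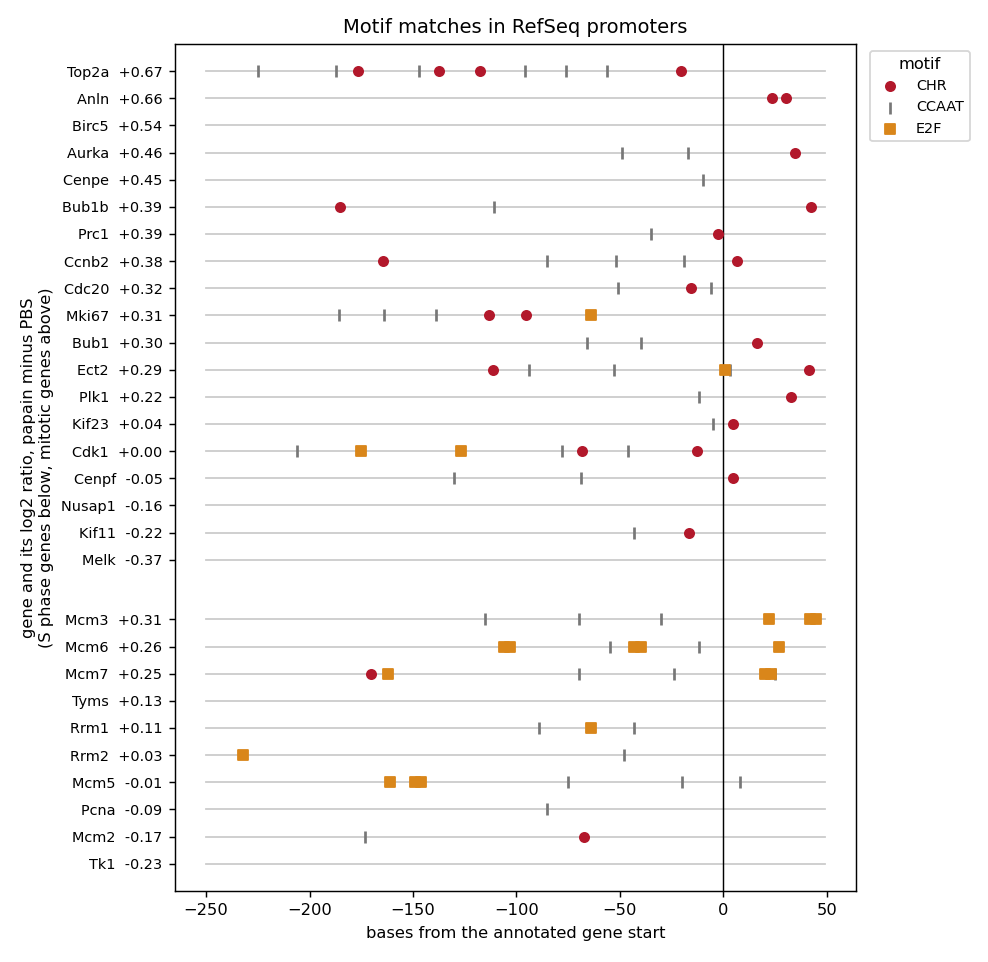
Positions of motif matches in the promoters of 29 genes, in bases from the annotated gene start, with each gene's log2 ratio of papain over PBS beside its name; the 19 mitotic genes are above and the 10 S phase genes below. CHR words (red circles) stand in 15 mitotic and 2 S phase promoters, and E2F words (orange squares) in 3 mitotic and 6 S phase promoters.

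The 34 genes together had small ratios that leaned towards the papain array. Their median log2 ratio was 0.18, against -0.03 for all named genes. Of the 34, 22 had a ratio above 0 (64.7%), against 45.6% of all named genes. Among the 28 genes whose higher signal reached 6.29, the median signal of all named genes, 18 had a ratio above 0 (64.3%), against 35.9% of all named genes that bright. These background shares depend on how the arrays are scaled. After loess of the ratio on mean signal they were 49.3% of all named genes and 47.1% of those that bright, and 24 of the 34 members (70.6%) were above 0. The genes of other tissues, which serve as background, also leaned this way, with 21 of 31 above 0 (67.7%) and a median of 0.13, so the share above 0 alone did not set the cell cycle genes apart from them. Those above background level in both arrays ran from -0.57 for Sftpc and -0.21 for Nphs1 to 0.74 for Myh6 and 0.81 for Cela1. No member was 2-fold apart in either direction, against 1.83% of all named genes that were higher by that much and 0.73% that were lower. At 1.5-fold 2 members were higher (5.88%), against 5.38% of all named genes, and 0 were lower, against 4.34%. The 2 above 1.5-fold are a share close to the background. Ratios beyond the probe set SD of 0.32 were found above 0 for 9 members (26.5%), against 14.9% of all named genes, and below 0 for 3 (8.82%), against 17.6%. Birc5, under background level in both arrays, was among the 9. Of the 31 genes of other tissues, 11 were past this SD above 0 and 3 below. These counts therefore did not set the members apart from genes of other tissues either.

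The mitotic genes had the higher median and the wider range of ratios, the range being over more genes. The median log2 ratio was 0.30 for the 23 mitotic genes, of which 16 were above 0 (69.6%). It was 0.03 for the 11 S phase genes, of which 6 were above 0 (54.5%). Above 0 were 45.6% of all named genes and 67.7% of the genes of other tissues, the latter close to the mitotic share. The medians differed by 0.27, a difference with no test. A higher median for mitosis was not seen in the further lists read below, at 0.05 for mitosis factors and 0.09 for replication factors. All 12 ratios past the probe set SD belonged to mitotic genes, 9 above 0 and 3 below. Of the 31 genes of other tissues, 14 were past this SD, 11 above 0 and 3 below. Of all named genes, 14.9% were past it above 0 and 17.6% below. The S phase genes ran from -0.23 to 0.31, all within that SD of 0, while the mitotic genes ran from -0.53 to 0.67. Over the 34 genes the ratio had little relation to mean signal, with r = -0.18 and rho = -0.09 across genes of these 2 arrays.

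**Figure D2:**
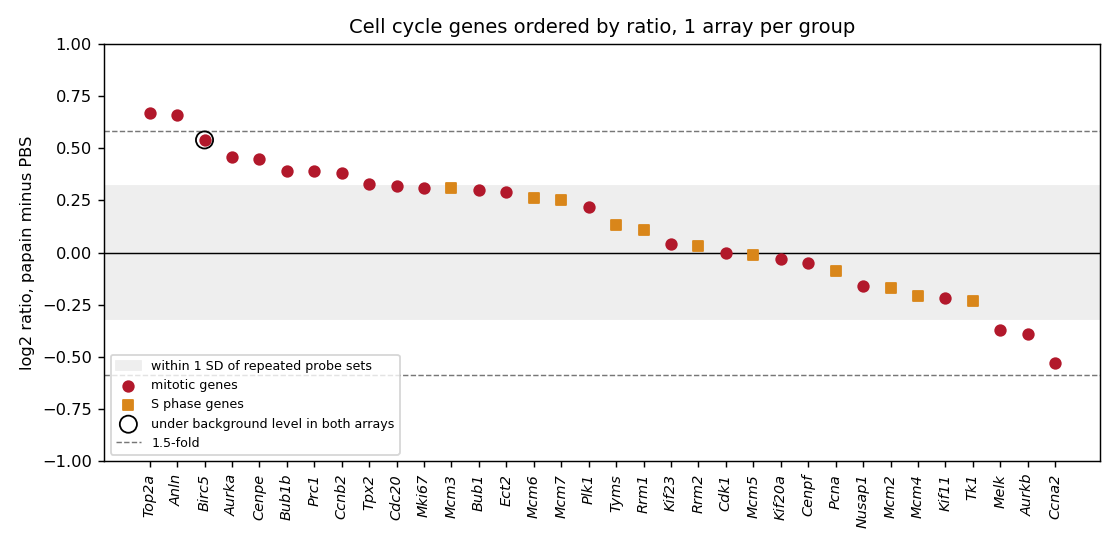
Log2 ratio of papain over PBS for each of the 34 genes, ordered from highest to lowest, with mitotic genes as red circles and S phase genes as orange squares; the grey band is 1 SD of repeated probe sets (0.32) either side of 0, and dashed lines mark 1.5-fold. Top2a and Anln lie above the upper dashed line, no gene lies below the lower one, and every S phase gene lies inside the band.

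Among the S phase genes, the 6 subunits of the MCM2-7 helicase, which unwinds DNA at the replication fork, had ratios of both signs. They work as a complex of 1 copy each, yet 3 had ratios above 0 and 3 below. Mcm3 read 6.49 after papain and 6.17 after PBS, a log2 ratio of 0.31. Mcm6 read 7.62 after papain and 7.36 after PBS, a ratio of 0.26, and Mcm7 read 6.94 after papain and 6.69 after PBS, a ratio of 0.25. On the other side, Mcm4 read 7.31 after papain and 7.51 after PBS, a ratio of -0.21. Mcm2 had a ratio of -0.17, at 6.45 after papain and 6.62 after PBS. Mcm5 was near equal in the 2 arrays, at 6.35 after papain and 6.36 after PBS. Since none of the 6 passed the probe set SD, the split among subunits is within the error of single probe sets.

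The remaining S phase genes supply the sliding clamp and the DNA precursors. Pcna, the clamp that holds DNA polymerases on the template, read 9.14 after papain and 9.23 after PBS, a ratio of -0.09. Rrm1, the large subunit of ribonucleotide reductase, read 7.88 after papain and 7.77 after PBS, a ratio of 0.11. Its partner Rrm2, the subunit that limits the enzyme outside S phase, read 5.90 after papain and 5.87 after PBS. Rrm2 was the only member with a second probe set of its symbol alone, which was under background level at 3.01 after papain and 2.70 after PBS. Tyms, thymidylate synthase, had a ratio of 0.13, at 7.14 after papain and 7.01 after PBS. Tk1, the salvage enzyme thymidine kinase, had the lowest S phase ratio at -0.23, reading 6.29 after papain and 6.52 after PBS. The genes for making and for salvaging thymidylate therefore had ratios of opposite sign, both within the probe set SD.

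Both genes of chromosome structure were higher in the papain array. Top2a, the topoisomerase that untangles sister DNA before anaphase, read 7.46 after papain and 6.80 after PBS, a log2 ratio of 0.67 or 1.59-fold, at the 95.9 percentile of all named genes. This was the highest ratio of the 34. Another pair of probe sets, annotated to both Top2a and Taf1d, read 9.01 and 9.30 after papain and 9.02 and 9.31 after PBS, with ratios of -0.01 each. They are not counted above, because they name 2 genes. Mki67, the chromosome surface protein Ki-67 that pathologists stain to count cycling cells, read 8.07 after papain and 7.76 after PBS, a ratio of 0.31 or 1.24-fold.

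The cyclins that partner cyclin-dependent kinase 1 went opposite ways. Ccnb2, cyclin B2, read 7.18 after papain and 6.81 after PBS, a ratio of 0.38. Ccna2, cyclin A2, which acts in S phase and early mitosis, read 6.74 after papain and 7.27 after PBS. Its ratio of -0.53 was the lowest of the 34, at the 5.87 percentile of all named genes. Cdk1 itself, the kinase of both cyclins, read 6.79 after papain and 6.79 after PBS, a ratio of 0.00 that is positive only past the second decimal.

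The mitotic kinases were split as well. Aurka, the Aurora kinase of the spindle poles, read 6.59 after papain and 6.12 after PBS, a ratio of 0.46. Aurkb, the Aurora kinase of the chromosomal passenger complex, went the other way at 5.66 after papain and 6.05 after PBS, a ratio of -0.39. Birc5, survivin, a partner of Aurkb in that complex, had a ratio of 0.54 from signals of 4.33 after papain and 3.79 after PBS. Both lay under background level, so this ratio does not measure a difference in transcript. Plk1, polo-like kinase 1, had a ratio of 0.22, at 6.38 after papain and 6.16 after PBS. Melk, a kinase expressed in proliferating and progenitor cells, read 7.74 after papain and 8.11 after PBS, a ratio of -0.37. With Ccna2 and Aurkb it made up the 3 members below 0 by more than the probe set SD.

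The spindle checkpoint and kinetochore genes leaned more evenly towards papain, with 4 of 5 above 0 and a median of 0.32. Cenpe, a kinetochore motor protein, read 6.69 after papain and 6.24 after PBS, a ratio of 0.45. Bub1b, the checkpoint protein BubR1, read 6.38 after papain and 6.00 after PBS, a ratio of 0.39. The checkpoint kinase Bub1 had a ratio of 0.30, at 5.44 after papain and 5.14 after PBS, a PBS signal close to background level. Cdc20, the activator of the anaphase-promoting complex that the checkpoint restrains, had a ratio of 0.32, just inside the probe set SD, at 6.88 after papain and 6.56 after PBS. Cenpf, a large kinetochore protein, was the exception at -0.05, reading 6.43 after papain and 6.47 after PBS.

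Genes of the spindle showed no common side, and those of the central spindle and cytokinesis mostly lay above 0. Tpx2, an activator of Aurora A on spindle microtubules, had a ratio of 0.33, at 7.04 after papain and 6.71 after PBS. Kif11, the kinesin Eg5 that separates spindle poles, had -0.22, at 6.74 after papain and 6.97 after PBS. Nusap1, a microtubule bundler near chromosomes, had -0.16, at 6.12 after papain and 6.28 after PBS. Anln, anillin, the scaffold of the contractile ring, read 7.12 after papain and 6.46 after PBS, a ratio of 0.66 or 1.58-fold, at the 95.8 percentile. Prc1, the crosslinker of central spindle microtubules, had 0.39, at 6.97 after papain and 6.58 after PBS. Ect2, the exchange factor that activates RhoA at the division plane, had 0.29, at 7.61 after papain and 7.32 after PBS. The central spindle kinesins stood near 0. Kif23 had a ratio of 0.04, at 6.10 after papain and 6.06 after PBS, and Kif20a had -0.03, at 6.54 after papain and 6.56 after PBS.

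**Figure D3:**
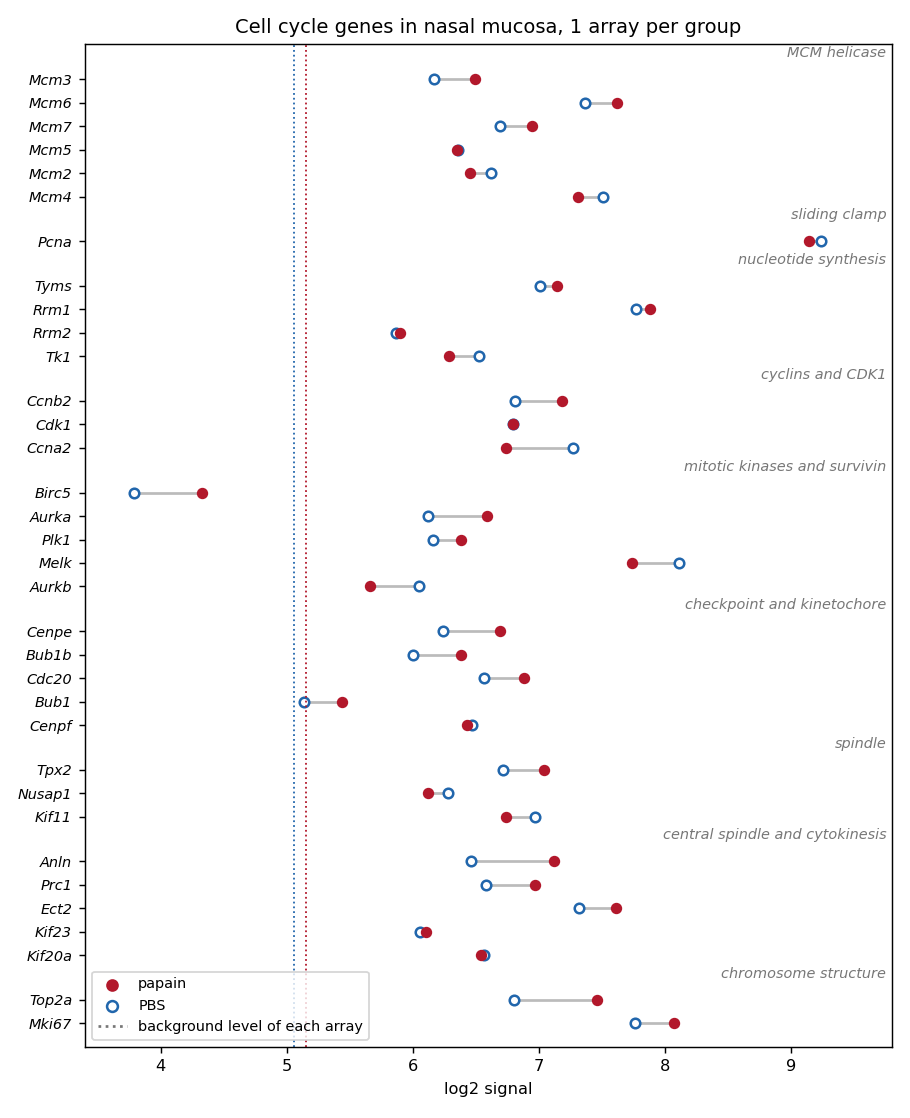
Log2 signal of each of the 34 genes in the papain array (filled red) and the PBS array (open blue), grouped by role and ordered within a role by ratio; dotted lines are the background level of each array (5.15 for papain and 5.06 for PBS). Birc5 is the gene under background level in both arrays, and Ccna2, Aurkb and Melk show the widest gaps with papain on the lower side.

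The mitotic promoters with and without a CHR word were set beside these ratios. Of the 15 mitotic genes with one, 13 were above 0, and the median log2 ratio was 0.31, from -0.22 for Kif11 to 0.67 for Top2a. The 4 without one (Birc5, Melk, Cenpe and Nusap1) had a median of 0.15, with 2 above 0. The 2 sets overlapped, and 1 of the 4, Birc5, had no signal above background level. The comparison left out the mitotic genes with no promoter found, Ccna2 at -0.53, Aurkb at -0.39, Kif20a at -0.03 and Tpx2 at 0.33. Ccna2 and Aurkb had the lowest ratios of all the mitotic genes, so the shares above 0 hold only for genes with a promoter. The S phase gene Mcm4, at -0.21, had no promoter found either. Among the S phase genes, the 6 with an E2F word had a median of 0.18, with 5 above 0, and the 4 without one (Mcm2, Pcna, Tyms and Tk1) had -0.13, with 1 above 0. In the opposite pairings, the 3 mitotic genes with an E2F word had a median of 0.29 and the 16 without one 0.35. The 2 S phase genes with a CHR word had 0.04 and the 8 without one 0.07. No pair of medians, matching or opposite, differed by clearly more than the probe set SD of 0.32. All these S phase ratios were within the probe set SD, and the numbers of genes are small. None of the differences between these medians was tested.

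Further genes of the same processes, outside the 34, were read beside them. Of 51 measured mitosis factors, 29 had a ratio above 0 (56.9%), against 45.6% of all named genes and 67.7% of the genes of other tissues. The median of the 51 was 0.05. At 1.5-fold 3 were higher after papain, a share near the 5.38% of all named genes, and 0 were lower. Ttk, a checkpoint kinase, had a ratio of 0.84, at 6.47 after papain and 5.63 after PBS, and Plk4, the kinase of centriole duplication, had 0.71, at 7.99 after papain and 7.28 after PBS. The lowest were Cks2, a CDK-binding subunit, at -0.36 and Cenpm, a centromere protein, at -0.35. The transcription factors of the mitotic programme were near level between the arrays. Foxm1 had 0.08, at 6.23 after papain and 6.15 after PBS, and Mybl2 had -0.14, at 6.26 after papain and 6.39 after PBS. The median of these 51 was thus lower than the 0.30 of the 23 mitotic genes, a difference that was not tested.

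Of 40 further replication factors, 25 had a ratio above 0 (62.5%), against 45.6% of all named genes and 67.7% of the genes of other tissues. The median of the 40 was 0.09, beside 0.03 for the 11 S phase genes. Hells, a chromatin remodeller of proliferating cells, was 1.91-fold higher at 7.46 after papain and 6.52 after PBS. It was the only one past 1.5-fold, against 5.38% of all named genes. Dbf4, the activator of the origin-firing kinase, had a ratio of 0.49. Prim1, a primase subunit, had -0.33 and Rfc2, a clamp loader subunit, -0.30. Of 21 regulators of G1, 11 were above 0 (52.4%), against the same 45.6% of all named genes, with a median of 0.06. Ccnd1, cyclin D1, had -0.47, at 8.78 after papain and 9.25 after PBS, and its partner Cdk6 had -0.45. Rb1, the retinoblastoma protein, had 0.32 and Ccne1, cyclin E1, 0.26, while E2f1 had 0.08 and Myc 0.13. Of 12 genes that restrain the cycle, 4 were above 0 (33.3%), with a median of -0.05 that became 0.02 after loess. After loess 50% of them were above 0, against 49.3% of all named genes. Gas1, a growth arrest gene, had -0.63 and was the 1 gene of these past 1.5-fold, lower after papain, against 4.34% of all named genes. The CDK inhibitor genes Cdkn1a, Cdkn1b and Cdkn1c had 0.22, -0.12 and -0.30. Cdkn2c, another CDK inhibitor gene, had 0.33 and Ccng1, a p53 target, 0.31.

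**Figure D4:**
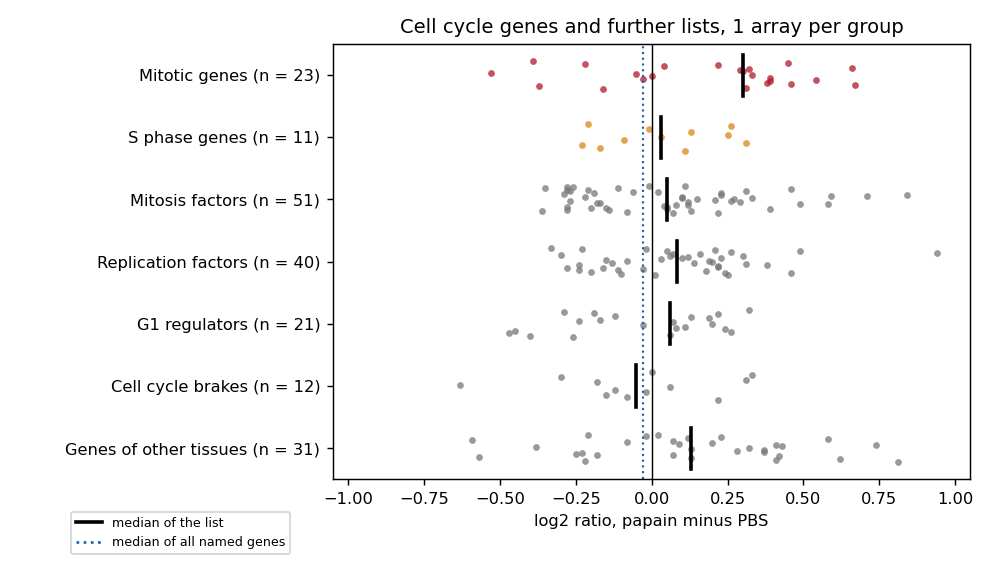
Log2 ratio of papain over PBS for every measured gene of the mitotic and S phase sets and of 5 further lists, with the median of each list as a black bar and the median of all named genes as a dotted line. The bar of the mitotic genes stands at 0.30, and those of the further cell cycle lists between -0.05 and 0.09, with the genes of other tissues at 0.13.

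Markers of several cell types differed between the same arrays, and their part in these ratios was not tested. For the counts here and in the next paragraph, 45.6% of all named genes and 67.7% of the genes of other tissues were above 0. All 6 immature neuron markers were above 0, with a median of 0.51 and a summed signal, in log2, of 11.25 after papain and 10.74 after PBS. Gng8 had the highest at 0.99 and Tubb3 had 0.58, while Gap43 and Dcx had 0.01 each. All 5 vomeronasal neuron markers were above 0, with a median of 0.56 and a summed signal of 11.62 after papain and 11.23 after PBS. Calr4, named after its value was seen, read 7.94 after papain and 4.59 after PBS, a ratio of 3.35 with the PBS signal under background level. Trpc2 had 0.83, Gnao1 0.56, Meis2 0.29 and Gnai2 0.10. Myeloid markers had 4 of 7 above 0, with a median of 0.29 and a summed signal of 11.78 after papain and 11.54 after PBS, with Ly6g under background level. Ptprc, the leukocyte antigen CD45, had 0.42 and Siglecf, of eosinophils, 0.38, while Itgam had -0.20 and Csf1r -0.04. The 2 measured erythroid genes, Slc4a1 and Klf1, had ratios of 0.42 and 0.34, with the PBS signal of Klf1 no higher than background level and a summed signal of 6.73 after papain and 6.34 after PBS. Fibroblast markers went the other way, with 0 of 6 above 0, a median of -0.49 and a summed signal of 13.48 after papain and 14.02 after PBS, from Col1a2 at -0.78 and Pdgfrb at -0.62 to Pdgfra at -0.35 and Lum at -0.17. Among osteoblast and cartilage markers 1 of 5 was above 0, with a median of -0.68 and a summed signal of 9.47 after papain and 10.08 after PBS, from Acan at -0.82 and Sp7 at -0.81 to Dmp1 at -0.57 and Col2a1 at 0.19.

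The markers of the dividing compartments of the epithelium and of lymphocytes differed less. Globose basal cells are the dividing progenitors of olfactory neurons. Of 5 markers of these cells and of neuronal precursors 3 were above 0, with a median of 0.02 that became -0.06 after loess and a summed signal of 9.95 after papain and 9.97 after PBS, and Neurog1 and Neurod1, which define the precursors, were under background level in both arrays. Of these 5, Lgr5 had the highest ratio at 0.26 and Kit the lowest at -0.31, and Sox2 had 0.03. Horizontal basal cells, the reserve stem cells, had Krt14 at -0.24, Krt15 at -0.06 and Trp63 at 0.02, with a summed signal of 10.93 after papain and 11.02 after PBS. Of 6 lymphocyte markers 2 were above 0, with a median of -0.04 and a summed signal of 7.80 after papain and 7.80 after PBS, and 4 of the 6 were under background level in at least 1 array, the B cell genes Cd79a and Ms4a1 among them. The other two, Cd3e and Cd4, had 0.03 and -0.04. Germinal centre B cell genes ran from -0.54 for Bcl6 to 0.50 for S1pr2, with Fas at -0.02 and a summed signal of 9.28 after papain and 9.47 after PBS.

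**Figure D5:**
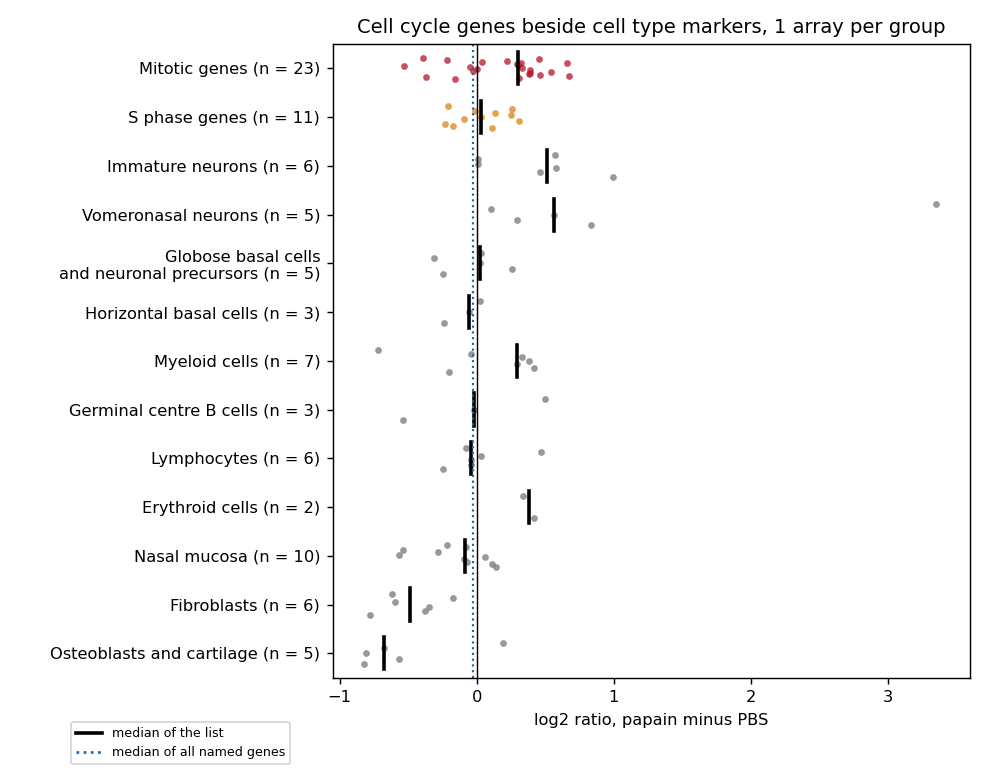
Log2 ratio of papain over PBS for the mitotic and S phase genes and for marker lists of 11 cell types or tissues, with the median of each list as a black bar. Immature and vomeronasal neuron markers lie to the right of 0 and fibroblast markers to the left, and the bars of both basal cell lists lie within 0.06 of 0.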

How the data were processed

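The authors deposited 1 log2 signal per probe set, and the log2 scale was inferred from the range of the values. The submitters' processing notes list Transcriptome Analysis Console 4.0. How background, summarisation and normalization were handled, and the genome build, is not given in the sources used here. If the arrays were scaled to each other, a difference in total RNA between specimens cannot show. Of 41345 probe sets, 23521 carried 1 gene symbol, 1814 several and 16010 none. The brightest single-symbol probe set stood for a gene. The members and lists were chosen with earlier results of these data known. All members were named, and of each further list the 2 highest and 2 lowest genes above background level in both arrays, plus 8 regulators whatever their values. Genes named outside this rule, Calr4, Klf1, Ly6g, Neurog1, Neurod1, Cd79a and Ms4a1, were chosen after their values were seen. Gene counts needed no floor unless stated. Alternatives were quantile normalization, a median ratio of 0, loess with a span of 0.3, averaged probe sets, and floors. The steps were tested on simulated data. Promoters came from RefSeq, with the first listed window per gene. Python 3.11.15, pandas 2.3.3, statsmodels 0.14.6 and matplotlib 3.10.9 were used.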

Additional observations from a re-analysis of the deposited data

Results flagged for a closer look

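A probe set outside the comparisons, annotated to both Mir25 and Mcm7, gave a signal that was higher in the papain array than in the PBS array, at 6.16 after papain and 6.06 after PBS, a log2 ratio of 0.11. It was picked among probe sets naming several genes for a signal above background level and a ratio above 0, so its side was fixed by the choice. The probe sets annotated to both Top2a and Taf1d, with ratios of -0.01, did not meet this rule. The microRNA lies within Mcm7, and the probe set that names Mcm7 alone had a ratio of 0.25. Both Mcm7 ratios are within the probe set SD of 0.32.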

How the results depend on the processing

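No paired analysis was possible because each group was 1 array, and for the same reason no replicate could be left out. The median log2 ratio of the mitotic genes became 0.39 after loess, against 0.30 as reported, and that of all members 0.24 among the 28 whose higher signal reached 6.29, a smaller set, against 0.18. The cause of the first shift was not tested. A median was taken as shifted when it moved by more than the probe set SD over the square root of the number of genes, which is 0.05 for all members, 0.07 for the mitotic genes, 0.10 for the S phase genes and 0.12 for their difference, and a count when it moved by more than 1.5 times. The other 56 values of medians and counts stayed within these limits. The difference between mitotic and S phase medians ran from 0.19 with averaged probe sets to 0.37 after loess, and the S phase median from -0.02 after quantile normalization to 0.11 with averaged probe sets. Of the single genes, 31 kept their sign under every scaling and probe set choice, and Kif20a, Mcm5 and Rrm2, all near 0, did not. Leaving out Birc5 and Rrm2, chosen after seeing the data, gave a median of 0.18. It could not move, because Birc5 lies above the median and Rrm2 below it. Over the 33 members with both signals above background level, which leaves out Birc5 alone, the median was 0.13. The median of the genes of other tissues was also 0.13. Only 18 of the 34 genes had both signals above 6.52, the 95 percentile of genes of other tissues, so the size of the other ratios is uncertain.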
